A study of Homo sapiens with 9 samples.

Results

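Platelet-derived growth factors (PDGFs) and vascular endothelial growth factors (VEGFs) are related secreted ligands, and 10 genes of the 2 families and their receptors are described here. They were 4 PDGF ligand genes (PDGFA, PDGFB, PDGFC and PDGFD), 2 PDGF receptor genes (PDGFRA and PDGFRB), 2 VEGF ligand genes (VEGFA and VEGFB) and 2 VEGF receptor genes (FLT1 and KDR). The 10 genes were chosen by gene symbol out of 46427 genes in the deposited tables, and all 10 had counts enough to be tested. They were put together with earlier results of these same 9 libraries in view, including the counts and FPKM (fragments scaled by transcript length and library depth) of both comparisons, so the levels and calls of these genes are a description and not independent evidence.

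All 9 libraries were RNA sequencing of H9, a long-established line of human embryonic stem cells (hESC), in 3 groups of 3. They were undifferentiated, untreated hESC; untreated neural progenitor cells (NPC) of day 11 on the way to midbrain dopamine neurons, called control here; and NPC of the same day given bafilomycin A1 (BafA1). Both NPC groups, per the labels, were differentiated with 200 nM LDN193189 and 10 µM SB431542, which block BMP and TGF-beta receptors, with 2 µM purmorphamine, a Hedgehog agonist, and with 3 µM CHIR99021, a GSK3 inhibitor that activates WNT signalling. BafA1, which blocks the vacuolar proton pump and so lysosomal acidification and autophagic degradation, was used at 10 nM for 6 h in several windows of days, and which of these applied here is not stated in the labels. The study set out to examine autophagy during this differentiation. All cells came from a single line, and replicates are labelled as biological ones, with nothing said of shared cultures or sequencing runs between groups.

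PDGF and VEGF ligands act as disulphide-linked dimers on receptor tyrosine kinases, which pair in the membrane, phosphorylate each other and pass the signal to the RAS and PI3-kinase pathways. PDGF receptors are best known on mesenchymal, mural and glial precursor cells, and PDGFRA marks oligodendrocyte precursors in the nervous system. VEGF receptors are best known on endothelium, where KDR carries most of the signal and FLT1 binds the same ligand with high affinity and a weaker kinase. Neural progenitors of the developing brain release VEGFA, which guides the ingrowth of vessels.

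Totals per library were 43124679 to 69703791 counts, both ends being BafA1 libraries. No library repeated another: chi-square per degree of freedom between replicates was at least 11.2 and at most 74.7. Of 10 neural progenitor markers, 9 had a mean of at least 1 FPKM in control and in BafA1 NPC, led by NES and SOX2, with summed levels of 295 to 366 and 319 to 387 FPKM. Pluripotency markers summed to 2235 to 2468 FPKM in hESC against 150 to 177 in control NPC and 184 to 218 with BafA1, and POU5F1, TDGF1, PRDM14 and UTF1 were at 0 in every control library. A gene is called higher or lower below where the edgeR quasi-likelihood test over all 20685 genes tested gave a Benjamini-Hochberg adjusted p under 0.05. The pluripotency sums of both NPC groups were led by LIN28A, followed by DPPA4 and DNMT3B. With BafA1, LIN28A (edgeR log2 change 0.55 ± 0.09, SE) and ZFP42 (0.74 ± 0.26) were called higher, and DPPA4 (-0.25 ± 0.08) and DNMT3B (-0.62 ± 0.13) lower.

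The 4 receptor genes are shown first by their promoters, because in differentiation both PDGF receptor genes were called higher and both VEGF receptor genes lower. The letters are the 250 bases before the RefSeq start of each gene on GRCh38.p14, 5′ to 3′ on the gene's own strand, and capitals mark the GC box, GGGCGG on either strand (CCGCCC as read here). PDGFRA is at chr4:54229043-54229292 on the plus strand, PDGFRB at chr5:150155846-150156095 on the minus strand, FLT1 at chr13:28495129-28495378 on the minus strand and KDR at chr4:55125596-55125845 on the minus strand.
PDGFRA: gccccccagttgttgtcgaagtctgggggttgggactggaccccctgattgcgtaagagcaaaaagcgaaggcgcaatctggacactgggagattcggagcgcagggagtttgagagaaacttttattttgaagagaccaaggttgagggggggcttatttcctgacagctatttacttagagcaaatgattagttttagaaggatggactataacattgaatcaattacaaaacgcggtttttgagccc
PDGFRB: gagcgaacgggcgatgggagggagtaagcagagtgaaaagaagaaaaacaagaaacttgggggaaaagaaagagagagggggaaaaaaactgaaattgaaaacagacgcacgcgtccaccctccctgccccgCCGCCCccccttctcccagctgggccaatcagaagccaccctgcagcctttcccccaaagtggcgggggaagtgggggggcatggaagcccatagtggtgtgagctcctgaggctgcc
FLT1: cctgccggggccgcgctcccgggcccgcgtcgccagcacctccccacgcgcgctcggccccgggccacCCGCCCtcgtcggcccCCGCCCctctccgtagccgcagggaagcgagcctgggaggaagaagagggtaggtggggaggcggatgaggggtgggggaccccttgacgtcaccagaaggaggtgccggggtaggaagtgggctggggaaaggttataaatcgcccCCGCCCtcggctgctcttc
KDR: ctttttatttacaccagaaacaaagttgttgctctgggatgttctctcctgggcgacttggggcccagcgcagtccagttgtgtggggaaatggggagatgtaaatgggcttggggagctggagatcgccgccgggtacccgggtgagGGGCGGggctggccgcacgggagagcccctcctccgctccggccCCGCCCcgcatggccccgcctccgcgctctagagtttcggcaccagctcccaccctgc

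The PDGFRA window held 0 GC boxes and the PDGFRB window 1, and there were 3 in the FLT1 window and 2 in the KDR window. A GC box was present in 42.6% of the 35116 RefSeq promoter windows of the same length. The GC content of these windows was 46.8% for PDGFRA, 58.4% for PDGFRB, 73.2% for FLT1 and 65.2% for KDR. FLT1 also held 1 TATAAA, found in 10.7% of all windows. The hypoxia response core (ACGTG or GCGTG on either strand, in 43.2% of windows) occurred 1 time each in FLT1 and PDGFRB and 0 times in PDGFRA and KDR. None of the 4 held an AP-1 site written TGACTCA or TGAGTCA, which 4.20% of windows had. These are matches of letters in a window and not sites shown to be bound. Promoter windows were matched for 7 of the 10 genes. In the matched ligand windows, that of VEGFB, which was called higher in differentiation, held 6 GC boxes at 82.8% GC content. That of PDGFD, also called higher, held 1 and that of PDGFA, called lower, held 4. Any link between the number of boxes and the direction of change was not tested.

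Between hESC and control NPC the make-up of the set changed: PDGFC and PDGFRA, the 2 lowest of the 10 in hESC, rose, while PDGFA, FLT1 and KDR fell. Of the 10 genes, 5 were called higher in control NPC (33.0% of all genes tested were), 4 lower (31.6% of all genes) and 1 not called, so 9 of 10 were called against 64.5% of all genes tested. Between control and BafA1 NPC, 8 of the 10 were called higher (20.8% of all genes), 2 lower (20.7%) and none missed the call, against 41.5% of all genes called in either direction. The median edgeR log2 change of the 10 was 0.53 in control NPC against hESC (0.03 over all genes tested) and 0.49 in BafA1 against control NPC (0.00 over all genes tested). Since the genes were put together with these contrasts in view, nothing is read from these shares. The comparisons share the control libraries. PDGFA, PDGFB, PDGFRA, VEGFA and KDR kept their BafA1 call in all 15 alternative analyses, whereas PDGFC, PDGFRB, FLT1, VEGFB and PDGFD each lost it in at least 2. The count of 8 was 5 with scaling by library size alone, with limma on log2(FPKM + 1) or log2(FPKM + 0.1), and without control replicate 2. Over all genes, 4309 were higher and 4277 lower with BafA1, against 3104 and 5681 with scaling by library size alone, 2941 and 5729 with limma on log2(FPKM + 1) and 2973 and 5814 on log2(FPKM + 0.1).

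**Figure D1:**
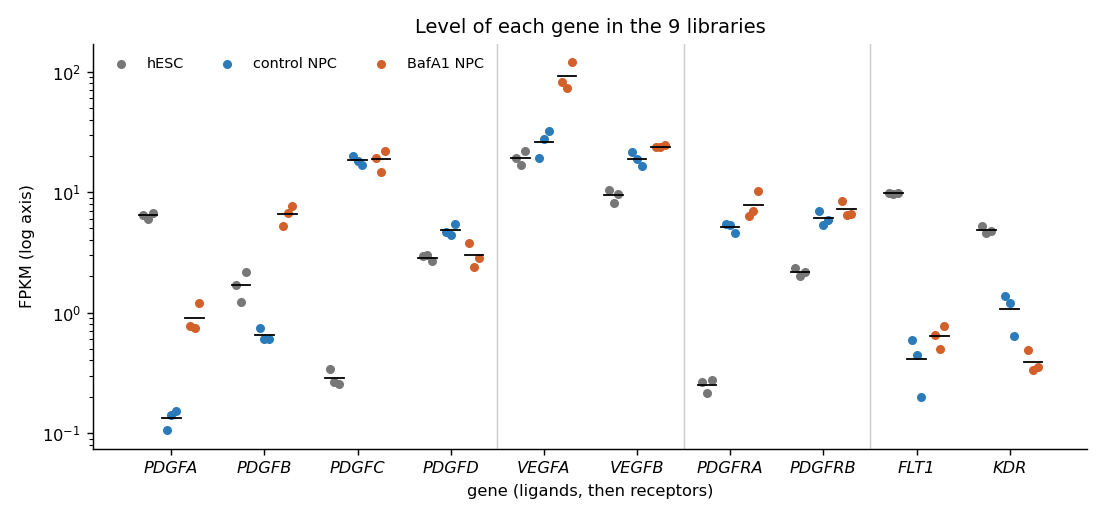
FPKM on a log axis of the 10 genes in the 9 libraries, ligands on the left and receptors on the right, with a point per library and a bar at the mean of each group of 3. PDGFB and VEGFA of BafA1 NPC lie above all other libraries, and PDGFA, FLT1 and KDR of hESC lie far above both NPC groups.

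**Figure D2:**
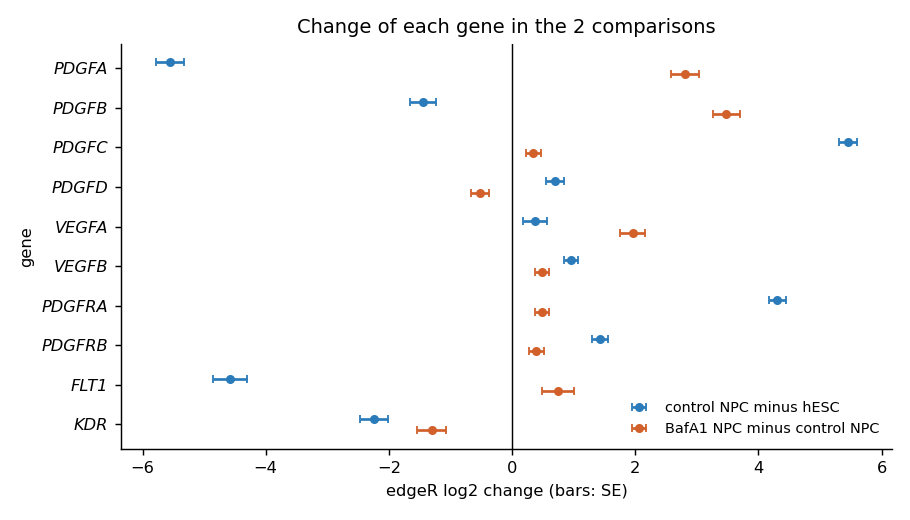
edgeR log2 change with its SE for the 10 genes, with control NPC minus hESC in blue and BafA1 NPC minus control NPC in orange. The blue points spread from -5.56 (PDGFA) to 5.45 (PDGFC), and the orange points from -1.30 (KDR) to 3.48 (PDGFB).

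PDGFB (gene ID 5155, chromosome 22, 39223359 to 39244982, minus strand) encodes the B chain, which binds both PDGF receptors. Its level was 1.71, 1.22 and 2.16 FPKM in the 3 hESC libraries, 0.745, 0.602 and 0.605 FPKM in control NPC and 5.23, 6.66 and 7.73 FPKM in BafA1 NPC. The 3 groups did not overlap, with control lowest and BafA1 highest, so the gene fell in differentiation and stood above its hESC level with BafA1. The edgeR log2 change was -1.44 ± 0.21 (SE) in control NPC against hESC and 3.48 ± 0.22 in BafA1 against control NPC, an 11.2-fold rise. In all 3 BafA1 libraries the count was 1279 to 2245, against 145 to 161 in control. In bulk RNA a change in the number of cells that express a gene and a change in RNA per cell cannot be told apart, here and for every gene that follows.

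PDGFA (gene ID 5154, chromosome 7, 497258 to 520700, minus strand) encodes the A chain, which acts mainly through PDGFRA. It was measured at 6.43, 6.03 and 6.74 FPKM in hESC, 0.105, 0.141 and 0.151 FPKM in control NPC and 0.776, 0.738 and 1.19 FPKM in BafA1 NPC. It was the most abundant PDGF ligand transcript of hESC and the least abundant of control NPC, and no groups overlapped. The log2 change was -5.56 ± 0.23 in differentiation (47.0-fold lower) and 2.81 ± 0.22 with BafA1 (7.01-fold higher). BafA1 NPC stood at 0.901 ± 0.250 FPKM against 6.40 ± 0.359 in hESC (SD, n = 3). The control level rests on 17 to 27 counts per library, and the BafA1 level on 98 to 244.

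PDGFC (gene ID 56034, chromosome 4, 156760454 to 156971799, minus strand) encodes a ligand that is secreted latent and is freed by cleavage of its CUB domain. It rose from 0.342, 0.264 and 0.256 FPKM in hESC to 20.0, 18.1 and 16.8 FPKM in control NPC, a log2 change of 5.45 ± 0.15 or 43.8-fold. BafA1 NPC had 19.3, 14.7 and 22.1 FPKM, which overlapped the control libraries on either side. On counts it was called higher with BafA1 at a log2 change of 0.35 ± 0.12, but the call was lost in 8 of 15 alternatives, with an edgeR adjusted p of 0.119 under scaling by library size alone and a log2 change of 0.01 with limma on log2(FPKM + 0.1). The call was also lost without control replicate 2 or 3 and without BafA1 replicate 2 or 3, at log2 changes of 0.23 to 0.36 over these 4.

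PDGFD (gene ID 80310, chromosome 11, 103907189 to 104164147, minus strand), the other latent ligand, acts mainly through PDGFRB. Its level was 2.92, 2.98 and 2.66 FPKM in hESC, 4.65, 4.39 and 5.38 FPKM in control NPC and 3.81, 2.39 and 2.86 FPKM in BafA1 NPC. It was highest in control NPC, and the BafA1 libraries reached from below to above the hESC range. It was called higher in differentiation (0.69 ± 0.15) and lower with BafA1 (-0.53 ± 0.15), the only PDGF ligand gene called lower with BafA1. Without BafA1 replicate 2 the edgeR adjusted p was 0.0513, and without BafA1 replicate 3 it was 0.0511, which left 1 member called lower in place of 2.

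The order of the PDGF ligand transcripts thus differed between groups. In hESC, PDGFA led at 6.40 ± 0.359 FPKM, followed by PDGFD at 2.85 ± 0.170, PDGFB at 1.70 ± 0.468 and PDGFC at 0.287 ± 0.048 (SD, n = 3), and no neighbours in that order overlapped. In control NPC, PDGFC led at 18.3 ± 1.64 FPKM, followed by PDGFD at 4.81 ± 0.516, PDGFB at 0.651 ± 0.082 and PDGFA at 0.133 ± 0.024, again without overlap. In BafA1 NPC, PDGFC at 18.7 ± 3.76 FPKM was followed by PDGFB at 6.54 ± 1.26, PDGFD at 3.02 ± 0.724 and PDGFA at 0.901 ± 0.250, also without overlap, so PDGFB and PDGFD had changed places. PDGFB made up 15.0, 11.7 and 18.3% of summed PDGF ligand FPKM in hESC, 2.92, 2.59 and 2.64% in control NPC and 18.0, 27.3 and 22.8% in BafA1 NPC. PDGFC made up 73.2 to 78.5% in control NPC and 60.0 to 66.3% with BafA1. The summed level itself was 10.5 to 11.8 FPKM in hESC, then 22.9 to 25.5 in control NPC and 24.5 to 33.9 with BafA1.

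**Figure D3:**
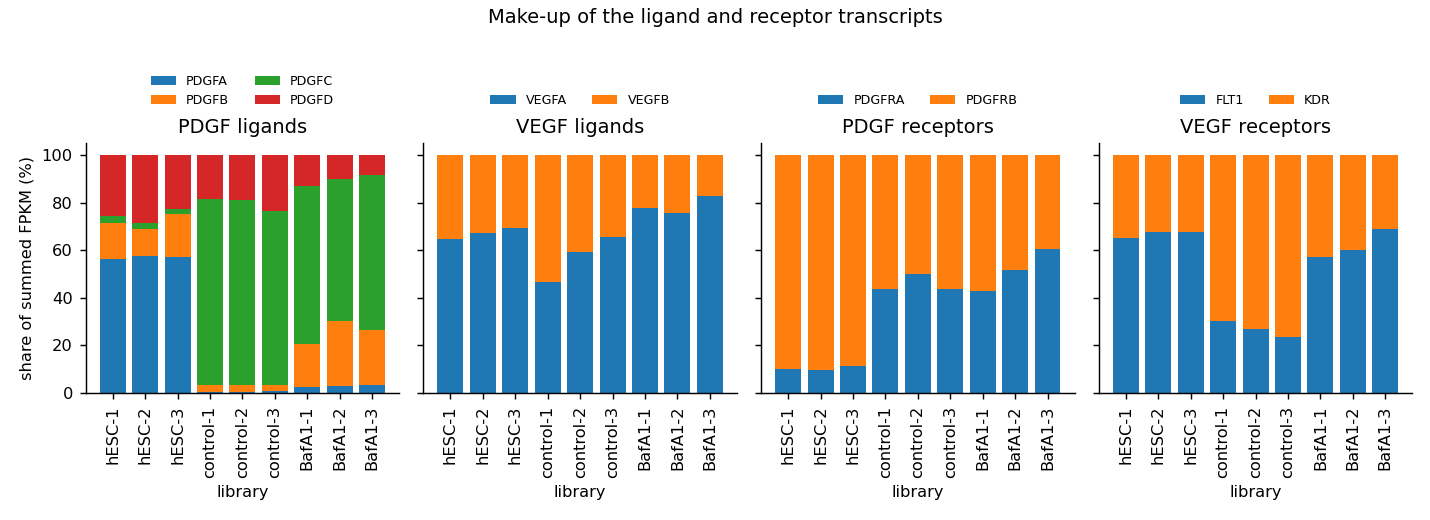
Share of each gene in the summed FPKM of its set, in percent, as stacked bars that start at 0, with a bar per library and a panel each for PDGF ligands, VEGF ligands, PDGF receptors and VEGF receptors. PDGFB takes 2.59 to 2.92% of the PDGF ligand bars of control NPC and 18.0 to 27.3% of those of BafA1 NPC, and FLT1 takes 23.6 to 30.2% and 57.2 to 68.8% of the VEGF receptor bars.

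VEGFA (gene ID 7422, chromosome 6, 43770211 to 43786487, plus strand) is the main ligand of KDR and a textbook target of hypoxia-inducible factors. It had the highest mean FPKM of the 10 in every group. It was measured at 19.4, 16.7 and 21.8 FPKM in hESC, 19.1, 27.4 and 32.0 FPKM in control NPC and 82.6, 73.0 and 119 FPKM in BafA1 NPC. All BafA1 libraries lay above all others, while control replicate 1 lay within the hESC range. With BafA1 the log2 change was 1.95 ± 0.20, or 3.88-fold. Control NPC against hESC gave 0.37 ± 0.20, which was not called (edgeR adjusted p = 0.120). Without control replicate 1 that contrast was called higher at 0.56 (edgeR adjusted p = 0.0183), and over its 15 alternatives it lay between 0.19 and 0.56.

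VEGFB (gene ID 7423, chromosome 11, 64234584 to 64239264, plus strand) encodes a ligand of FLT1 that does not bind KDR. It rose from 10.5, 8.12 and 9.63 FPKM in hESC to 21.7, 18.7 and 16.6 FPKM in control NPC, a log2 change of 0.95 ± 0.11. BafA1 NPC had 23.6, 23.5 and 24.4 FPKM, above all control libraries, and a log2 change of 0.48 ± 0.11. That last call was lost when trends of GC content and length were removed from each library, where the log2 change was 0.13 (edgeR adjusted p = 0.262).

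VEGFA exceeded VEGFB in every hESC and BafA1 library, and in control replicates 2 and 3, while in control replicate 1 it was lower. Its share of the summed FPKM of the pair was 64.8, 67.3 and 69.4% in hESC, 46.8, 59.4 and 65.8% in control NPC and 77.8, 75.7 and 83.0% in BafA1 NPC. The pair summed to 24.9 to 31.5 FPKM in hESC, then 40.7 to 48.6 in control NPC and 96.5 to 144 with BafA1.

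PDGFRA (gene ID 5156, chromosome 4, 54229293 to 54298245, plus strand), whose product binds the A, B and C chains, rose in differentiation from 0.263, 0.216 and 0.274 FPKM in hESC to 5.40, 5.33 and 4.57 FPKM in control NPC. The log2 change was 4.31 ± 0.14, or 19.8-fold. In BafA1 NPC it was at 6.38, 6.95 and 10.1 FPKM, above all control libraries, at a log2 change of 0.49 ± 0.11. A protein-coding gene of GENCODE, AC058822.1, overlaps it on the same strand, so that its reads could be shared.

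PDGFRB (gene ID 5159, chromosome 5, 150113839 to 150155845, minus strand), which binds the B and D chains, rose from 2.34, 2.00 and 2.17 FPKM in hESC to 6.98, 5.32 and 5.84 FPKM in control NPC, a log2 change of 1.43 ± 0.13. BafA1 NPC had 8.48, 6.47 and 6.56 FPKM, which overlapped the control libraries. It was called higher with BafA1 at 0.39 ± 0.12, and 6 of 15 alternatives lost that call, among them scaling by library size alone (edgeR adjusted p = 0.139). Leaving out control replicate 2, control replicate 3 or BafA1 replicate 1 lost it too, at edgeR adjusted p of 0.115, 0.0561 and 0.0769. PDGFRA made up 9.78 to 11.2% of PDGF receptor FPKM in hESC, then 43.6 to 50.0% in control NPC and 42.9 to 60.7% with BafA1. From counts the control and BafA1 ranges were 46.9 to 53.2% and 44.4 to 56.1%.

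Markers of mesenchymal and mural cells, the cell types best known for PDGF receptors, were measured beside them. The 8 mesenchymal markers summed to 26.2 to 29.2 FPKM in hESC, then 279 to 466 in control NPC and 432 to 518 with BafA1, led in NPC by COL1A1, COL1A2 and TWIST1, and LUM was at 0 in hESC. The 9 mural markers summed to 23.6 to 24.4, 96.9 to 121 and 133 to 154 FPKM, led in NPC by ACTA2, NOTCH3 and RGS5, with ABCC9 at 0 in hESC. At least 1 FPKM was reached by 2, 6 and 6 of the mesenchymal and by 4, 5 and 5 of the mural markers in hESC, control and BafA1 NPC. Both sums lay higher in control NPC than in hESC, as PDGFRA and PDGFRB did; in BafA1 NPC the mural sum lay above control NPC and the mesenchymal sum overlapped it. Single markers did not all follow the sums. With BafA1, COL1A1 (log2 fold change 0.70 ± 0.17, SE), COL1A2 (0.58 ± 0.15), ACTA2 (0.99 ± 0.13), MCAM (0.75 ± 0.11) and DES (1.65 ± 0.49) were called higher, whereas DCN (-3.45 ± 0.50), LUM (-1.67 ± 0.14), PRRX1 (-1.54 ± 0.21) and NOTCH3 (-0.38 ± 0.13) were called lower. In differentiation CSPG4 (-2.52 ± 0.18) and DES (-1.98 ± 0.49) were called lower. Of the oligodendrocyte lineage markers, PTPRZ1 was called lower in differentiation at -2.89 ± 0.09, SOX10 was at 0.519 to 0.637 FPKM in hESC and at 0 in every control library, and NKX2-2 was at 0 in hESC and at 2.94 to 3.61 FPKM in control NPC. The part of these cell types in the receptor results was not tested.

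FLT1 (gene ID 2321, chromosome 13, 28300346 to 28495128, minus strand) fell from 9.84, 9.59 and 9.92 FPKM in hESC to 0.592, 0.442 and 0.198 FPKM in control NPC, a log2 change of -4.58 ± 0.27 or 23.9-fold lower. BafA1 NPC had 0.649, 0.500 and 0.776 FPKM, which overlapped the control libraries, and control replicate 3 was the lowest of all. It was called higher with BafA1 at 0.74 ± 0.26 and lost the call in 8 of 15 alternatives. These included DESeq2 (DESeq2 adjusted p = 0.0757) and scaling by library size alone (edgeR adjusted p = 0.0809). They also included leaving out control replicate 2, BafA1 replicate 1 or BafA1 replicate 3, at edgeR adjusted p of 0.0758, 0.0763 and 0.124.

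KDR (gene ID 3791, chromosome 4, 55078481 to 55125595, minus strand) fell in both steps. Its level was 5.28, 4.59 and 4.71 FPKM in hESC, 1.37, 1.20 and 0.642 FPKM in control NPC and 0.485, 0.332 and 0.351 FPKM in BafA1 NPC, with no overlap between groups. The log2 change was -2.24 ± 0.22 (4.74-fold lower) in differentiation and -1.30 ± 0.24 (2.47-fold lower) with BafA1, the lower level resting on 104 to 186 counts per library. KDR was the only receptor gene of the 4 called lower with BafA1. FLT1 made up 65.1 to 67.8% of the summed FPKM of FLT1 and KDR in hESC, then 23.6 to 30.2% in control NPC and 57.2 to 68.8% with BafA1. The pair summed to 14.2 to 15.1, 0.840 to 1.96 and 0.832 to 1.13 FPKM.

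Endothelial cells, the main site of both VEGF receptors, had few of their markers here. At least 1 FPKM was reached by 3 of 13 endothelial markers in each group, and EMCN was at 0 in every library. The list summed to 27.8 to 34.6 FPKM in hESC, then 15.8 to 17.2 in control NPC and 22.1 to 30.8 with BafA1, led by EGFL7 and TEK, with PECAM1 and SOX17 at 0 in control NPC. The 9 early mesoderm markers summed to 1.68 to 2.07, 1.21 to 1.57 and 2.25 to 2.89 FPKM, with TBX6 the highest of them, and GATA4 and HAND1 at 0 in control NPC. Both sums were lower in control NPC than in hESC, as FLT1 and KDR were, and higher in BafA1 NPC than in control, as KDR was not. Single markers did not all follow the sums. Of the endothelial markers in differentiation, PECAM1 (log2 change -7.87 ± 1.12, SE), ERG (-5.47 ± 0.66) and TIE1 (-4.01 ± 0.26) were called lower. So were CDH5 (-2.16 ± 0.40), MMRN2 (-1.81 ± 0.19), CLDN5 (-1.41 ± 0.50), EGFL7 (-1.34 ± 0.16) and VWF (-1.22 ± 0.41). TBX6 (-1.09 ± 0.28) and MIXL1 (-2.08 ± 0.34), early mesoderm markers, were called lower as well. ESAM (6.01 ± 0.66) was the only endothelial marker called higher, and TEK (0.10 ± 0.12) was not called. The early mesoderm markers MESP1 (1.84 ± 0.37), GATA6 (7.81 ± 1.09) and ISL1 (7.39 ± 1.70) were called higher. These rest on few counts, with 0 in every hESC library for GATA6 and ISL1. In control NPC, GATA6 had 19 to 33 counts and ISL1 13 to 26. MESP1 had 6 to 11 counts in hESC and 26 to 39 in control NPC. With BafA1, EGFL7 (1.01 ± 0.16), MMRN2 (1.02 ± 0.19) and TIE1 (1.01 ± 0.27) were called higher and VWF (-1.58 ± 0.47) lower. TBX6 (1.37 ± 0.28) and MESP1 (1.09 ± 0.32) were called higher too. The part of endothelial and early mesoderm cells in the receptor results was not tested.

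The mean transcript length implied by count and FPKM was also derived. It is a ratio of values that were in view when the genes were put together, so it is not independent evidence. A count divided by its FPKM is proportional to the length the authors' tool gave the gene in that library, and 1768 genes with 1 annotated transcript set the scale in bases. In genes with 1 transcript and at least 1 FPKM, 97.3 to 98.4% per library lay within 1% of their median; where more than 5 transcripts were annotated, 51.8 to 58.8% did. KDR, with 1 transcript in the file, stayed between 5848 and 5875 bases in all libraries, which is the spread where the annotation fixes the length. For genes with more transcripts the spread within a group varied by gene. In BafA1 NPC the SD was 665 bases for PDGFRA, 609 for PDGFC, 398 for FLT1 and 6.69 for VEGFA (n = 3). Lengths come from GENCODE, so absolute values are approximate. PDGFA had too few counts in control NPC to enter, which left 9 genes, and with 3 libraries against 3 an exact permutation test cannot go below p = 0.1.

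The implied length of PDGFRA was 6450, 6386 and 6422 bases in control NPC and lower in BafA1 NPC, at 5984, 5520 and 4673 bases. The groups did not overlap, and the mean difference was -1027 bases or -16.0% (exact permutation test, two-sided, p = 0.1, adjusted p = 0.225 over 18 tests). In hESC, at 85 to 121 counts, it was 6029, 6194 and 6608 bases, which overlapped control NPC. Of the 8 PDGFRA transcripts in the file, the 3 with a GENCODE length all have 6576 bases, so no shorter transcript was identified. The implied length of PDGFC was 4681, 4605 and 4629 bases in hESC, at 77 to 121 counts, and 3265, 3377 and 3413 in control NPC. The difference was -1286 bases or -27.7% (exact permutation test, two-sided, p = 0.1, adjusted p = 0.225). In BafA1 NPC the implied length was 3261, 4468 and 3724 bases, with replicate 2 near the hESC length, which overlapped control NPC. Of the 5 PDGFC transcripts in the file only 2 have a GENCODE length, the coding one 4165 bases and the noncoding one 2987. The hESC values lie above both, so these lengths do not show which transcripts differed.

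FLT1, which also makes short transcripts for a soluble receptor, had 6549 to 6635 bases in hESC and 6837 to 6950 in control NPC, a difference of 308 bases or 4.68% (exact permutation test, two-sided, p = 0.1, adjusted p = 0.225). BafA1 NPC had 6802, 6903 and 6168 bases. The 4 FLT1 transcripts in the file with a known length have 1911, 2969, 6453 and 7092 bases, so the mean lay near the long ones in every library. VEGFA, with 20 transcripts of 414 to 3535 bases, stayed between 3500 and 3554 bases, and PDGFB between 3737 and 3756.

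Groups without overlap in implied length were found for 3 of the 9 genes in BafA1 against control NPC (20.2% of 14240 genes with at least 50 counts in every library) and for 5 of 9 in control NPC against hESC (22.2% of 13805 genes). Such gaps include differences under 1%, KDR among them in control NPC against hESC. A gap together with a mean difference of at least 10% was seen for PDGFRA alone with BafA1 (2.63% of all genes) and for PDGFC alone in differentiation (2.58% of all genes). None of the 18 tests passed after adjustment, which this design did not allow.

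**Figure D4:**
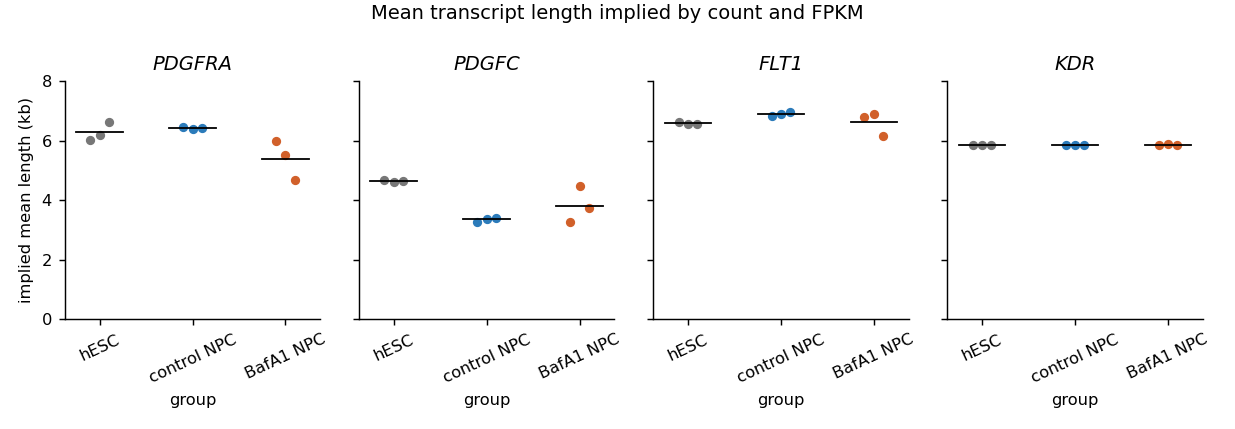
Mean transcript length in kilobases implied by count and FPKM, for PDGFRA, PDGFC, FLT1 and KDR, with a point per library, a bar at the group mean and the axis starting at 0. PDGFRA of the BafA1 libraries lies below control NPC, PDGFC of both NPC groups lies below hESC, and KDR stays level.

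The remaining genes of the families were read next. PGF, the placental growth factor that binds FLT1, rose at both steps, from 1.92, 1.33 and 2.10 FPKM in hESC to 6.11, 5.44 and 6.17 in control NPC and 10.3, 9.55 and 9.71 in BafA1 NPC, with log2 changes of 1.66 ± 0.15 and 0.89 ± 0.14. PDGFRL, which encodes a receptor-like protein without a kinase, was called higher in differentiation (0.62 ± 0.20) and lower with BafA1 (-0.87 ± 0.20), at 2.34 to 2.72 FPKM in control NPC and 0.954 to 1.43 with BafA1. The neuropilins, co-receptors of VEGF and semaphorins, rose in differentiation, NRP1 by 6.36 ± 0.21 and NRP2 by 2.33 ± 0.12 on the log2 scale. With BafA1 neither was called, at 0.38 ± 0.15 for NRP1 (edgeR adjusted p = 0.0564) and 0.25 ± 0.12 for NRP2 (edgeR adjusted p = 0.104). NRP1 was called higher in 6 of 15 alternatives and NRP2 in 4.

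The lymphatic ligands VEGFC and VEGFD rose in differentiation by 1.07 ± 0.18 and 4.34 ± 0.56 on the log2 scale, VEGFD from 0 to 0.112 FPKM in hESC. With BafA1 their log2 changes were -0.17 ± 0.18 and -0.32 ± 0.44, neither called. Their receptor gene FLT4 fell in differentiation (-0.61 ± 0.10) and had 1.53 to 1.80 FPKM in control NPC and 1.21 to 1.31 with BafA1, a log2 change of -0.26 ± 0.10 that was not called (edgeR adjusted p = 0.0674) and was called lower in 5 of 15 alternatives. Of these 7 family genes, 1 was called higher and 1 lower with BafA1, with a median log2 change of -0.17, and 6 higher and 1 lower in differentiation, with a median of 1.66. Over all genes tested 20.8% were called higher and 20.7% lower with BafA1, and 33.0% and 31.6% in differentiation.

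Genes of the wider pathway were taken from lists by role, 95 genes in 7 lists with the family genes above, of which 94 were tested. With BafA1, 31 were called higher and 22 lower, with a median log2 change of 0.04, beside 20.8% and 20.7% of all genes called and a median of 0.00. Without control replicate 1, control replicate 2, BafA1 replicate 2 or BafA1 replicate 3 the 22 called lower were 14, 13, 13 and 13. In control NPC against hESC, 36 were higher and 39 lower, beside 33.0% and 31.6% of all genes.

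Of the early response and feedback genes of growth factor signalling, 13 of 22 were called higher and 1 lower with BafA1 (median 0.67), beside 20.8% and 20.7% of all genes. Earlier results of these data had shown rises among them. CCN1 and CCN2, matricellular proteins, rose by 2.09 ± 0.13 and 1.68 ± 0.09 on the log2 scale, and the transcription factor gene MYC by 2.21 ± 0.14. The 1 gene called lower was SPRY4, a feedback inhibitor of receptor tyrosine kinases, at -0.83 ± 0.17, named after its value was seen. In differentiation the same list had 6 called higher and 14 lower (median -0.61), beside the 33.0% and 31.6% of all genes.

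Among genes that process or hold the ligands, 7 of 12 were called higher and 3 lower with BafA1 (median 0.37), beside 20.8% and 20.7% of all genes. PLAU, the urokinase that can cleave the latent D chain, rose by 1.20 ± 0.14, the matrix glycoprotein gene THBS1 by 1.00 ± 0.09 and HSPG2, which encodes the heparan sulphate proteoglycan perlecan, by 1.00 ± 0.13. Signal transducers behind the receptors were called in both directions, 4 of 21 higher and 5 lower (median -0.01), near the 20.8% and 20.7% of all genes. MAP2K1, a kinase of the ERK cascade, rose by 0.78 ± 0.08, and SHB, an adaptor of both receptor families, by 1.01 ± 0.16, whereas the PI3-kinase subunit gene PIK3R1 had a log2 change of -0.93 ± 0.11 and was called lower.

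HIF subunits and oxygen sensors, taken because VEGFA is a HIF target, had 4 of 10 called higher and 3 lower with BafA1 (median 0.12). Over all genes tested 20.8% were called higher and 20.7% lower. HIF3A rose by 1.14 ± 0.10 and the prolyl hydroxylase gene EGLN1 by 1.04 ± 0.15, while its relative EGLN2 was called lower at -0.56 ± 0.10. Other angiogenic ligands and receptors had 2 of 16 called higher and 7 lower (median -0.22), beside the same 20.8% and 20.7% of all genes. The vasoactive peptide gene ADM rose by 2.33 ± 0.22, while the sphingosine-1-phosphate receptor gene S1PR1 (-1.40 ± 0.21) and the TIE2 ligand gene ANGPT1 (-0.99 ± 0.21) were called lower.

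Of the class III receptors related to the PDGF receptors, with their ligands, none of 6 tested was called higher with BafA1 and 2 were called lower, KIT at -0.50 ± 0.15 and its ligand gene KITLG at -0.29 ± 0.10. Over all genes tested 20.8% were called higher and 20.7% lower. Only 4 of the 6 had counts in both groups, and their median was -0.29. CSF1R had too few counts to be tested.

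**Figure D5:**
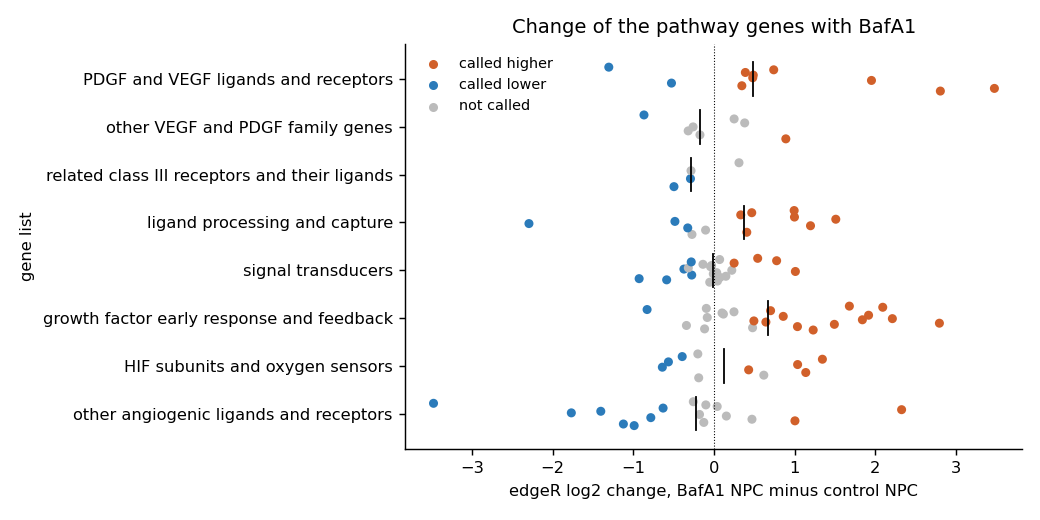
edgeR log2 change in BafA1 minus control NPC of the 10 genes (top line) and of the tested genes of each pathway list with counts in both groups, with a point per gene, colour for the call and a bar at the median. Of the 22 early response and feedback genes 13 are called higher, and of the 16 other angiogenic genes 7 are called lower. Over all genes tested 20.8% are called higher and 20.7% lower.

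Genes whose pattern over the 9 libraries was closest to a member's were listed for PDGFB, VEGFA, PDGFRA and KDR, by the root mean square difference of centred log2 CPM. Closest to VEGFA were MXI1 at 0.12, GBE1 at 0.13, PFKFB4 at 0.17, RAB20 at 0.17 and INSIG2 at 0.19. Closest to PDGFRA were ANXA2 at 0.15, ADGRG6 at 0.19, TNFRSF19 at 0.21, COL1A1 at 0.21 and FLNC at 0.21. Closest to KDR were TMEM132B at 0.15, ITPR2 at 0.20, BCL11A at 0.24, UBALD1 at 0.24 and B3GALT1 at 0.25. The nearest genes to PDGFB were farther off, with MT1X at 0.39, JUN at 0.40, CEBPD at 0.47, KISS1R at 0.50 and ALMS1-IT1 at 0.53. MT1X is a metallothionein with near-identical copies, so its own value is uncertain. These rankings are descriptions over the same libraries.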

How the data were processed

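Stranded mRNA libraries were sequenced from 3 samples each of hESC, control NPC and BafA1 NPC, per the labels' protocols. The submitters' processing notes name Trimmomatic for trimming and GRCh38 as the build. For the aligner, the counter and its strand setting nothing is stated. Raw read counts per gene were deposited as whole numbers, in a single table, per the file headers. Normalised values were deposited as FPKM, in a table per group, per the file headers. Columns were matched to samples by name; the columns named as control were the untreated NPC, the only group without another column. The 10 genes and all gene lists were chosen with earlier results of these data known.

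Counts were fitted with edgeR 4.0.16 in R 4.3.3 (filterByExpr, TMM, glmQLFit and glmQLFTest, 1 term per group, all 9 libraries), with two-sided tests and Benjamini-Hochberg adjustment over 20685 genes. With 0 as the trimmed mean of all genes, a change is relative to most genes. Alternatives were DESeq2 1.42.0, library size alone, no filter, only the groups compared, a replicate block, removal of GC and length trends, limma 3.58.1 on log2 FPKM with a pseudocount of 1 or 0.1, and leaving out each replicate. GC content and length were known for 84.6% of tested genes; the others had no correction. The fit was tested on simulated data first. Shares and levels across genes use FPKM, which is per length. No p-value is given over the 10 genes as a list.

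Named genes are all 10, the 7 other family genes, up to 3 called genes of each other list with the smallest adjusted p in BafA1 against control NPC, the 3 leading markers of a list, and the 5 genes nearest in pattern to PDGFB, VEGFA, PDGFRA and KDR (log2 CPM with a prior count of 2). SPRY4, CSF1R, and markers named for being at 0 or for a change (such as EMCN, LUM, DCN or DES) fall outside this rule and were chosen after their values were seen. Coordinates are 1-based positions of RefSeq on GRCh38.p14, joined by gene ID, and promoters are RefSeq's. PDGFA, PDGFB, PDGFC, PDGFD, VEGFA and KDR overlap genes on the opposite strand. All 160 list entries matched a gene, and 0 columns of other samples were present. P-values set a difference between groups against the spread between these libraries, and whether the replicates share cultures is not stated. The values of 1 marker list are reported in part.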

Additional observations from a re-analysis of the deposited data

How the results depend on the processing

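No gene of the 10 and no other family gene changed direction under any of the 15 alternatives of either comparison. Scaling by library size alone moved the median of all genes to -0.12 on the log2 scale in BafA1 against control NPC and to 0.14 in control NPC against hESC. Of the 10 genes, 8 were called higher with BafA1, and 5 were with scaling by library size alone, 5 with limma on log2(FPKM + 1), 5 with limma on log2(FPKM + 0.1), and 5 to 8 when each replicate was left out in turn. The 2 called lower were 1 to 2 without each replicate, the pathway genes called lower were 13 to 22, and the genes without overlap in implied length with BafA1 were 3 to 5, the 5 being without control replicate 2 or BafA1 replicate 2. The pseudocount of 1 pulls low levels together, so the log2 change with BafA1 was as low as 0.74 for PDGFA and as small as -0.56 for KDR. From counts in place of FPKM, the VEGFA share of its pair was 80.2, 72.1 and 87.9% in hESC, control and BafA1 NPC, against 67.2, 57.3 and 78.8% from FPKM, and PDGFB made up 2.95% of PDGF ligands in control NPC against 2.71%, since counts rise with transcript length. Deviations of same-numbered libraries from their group means had correlations of -0.055 to -0.018 for BafA1 and control NPC, and 0.021 to 0.088 for control NPC and hESC. Those of differently numbered libraries were -0.015 to 0.050 and -0.057 to 0.034. With 3 libraries per group, these small values do not settle whether the numbers pair the samples. With the replicate block, 7 of the 10 genes were called higher and 2 lower with BafA1, PDGFC having an edgeR adjusted p of 0.0530, and 4112 genes were higher and 4130 lower in all. VEGFA in control NPC against hESC was called higher with scaling by library size alone (0.47), with the block and removal of GC and length trends together (0.36) and without control replicate 1 (0.56). PDGFRL in control NPC against hESC lost its call without hESC replicate 1 (edgeR adjusted p = 0.0659). The cause of these changes was not tested. Depth was lowest for PDGFA in control NPC, at 17 to 27 counts per library, and it also limits PDGFC (77 to 121) and PDGFRA (85 to 121) in hESC, FLT1 in control NPC (88 to 233) and KDR in BafA1 NPC (104 to 186).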
